A study of Homo sapiens with 68 samples.

Results

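The messenger RNAs of 8 genes, MYC (ENSG00000136997), CCND1 (ENSG00000110092), XIAP (ENSG00000101966), CDKN1B (ENSG00000111276), FGF2 (ENSG00000138685), VEGFA (ENSG00000112715), APAF1 (ENSG00000120868) and HIF1A (ENSG00000100644), were examined because each is reported to hold an internal ribosome entry site that depends on an hnRNP protein. They were chosen by gene identity alone, as the peaks whose Ensembl gene identifier was that of 1 of the 8 genes. These peaks numbered 7946 of 15800601 in all lists, in 8 of the 22843 genes with a peak, and 61 of the 68 libraries listed at least 1 of them.

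The libraries came from CLIP, in which ultraviolet light fixes proteins to the RNA they touch, 1 protein is pulled down with its antibody, and the attached RNA fragments are sequenced. All were made from unmodified HEK293T cells, an established human embryonic kidney line, with antibodies against hnRNPA1, hnRNPc, hnRNPI or RBFOX2 (the antibody is named RBM9), in 34 groups of 2 replicates. The main groups were crosslinked, held 50000 cells and used low RNase (0.005 U), and each protein was profiled with a gel step (PAGE, which isolates the protein-RNA complexes by size), without it, and without it but with the exonuclease RecJ. A matching set with and without PAGE was titled noUV and is called not crosslinked here. That rests on the titles alone, since the treatment protocol given for these libraries is the same as for the others and includes the ultraviolet step. Other groups used medium RNase (0.025 U), fewer cells, or other size regions of the gel.

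An internal ribosome entry site is a stretch of RNA, usually in the 5' untranslated region, that can recruit a ribosome without the cap at the RNA's 5' end, which matters when cap-dependent translation is low, as in stress, mitosis or apoptosis. Its activity is reported to depend on RNA-binding proteins, among them several hnRNPs, abundant nuclear proteins that also act in splicing and export. Those put forward include hnRNP A1 for FGF2, CCND1, MYC and XIAP, and hnRNP C for XIAP and MYC. hnRNP I (also called PTB or PTBP1, which binds pyrimidine-rich RNA) was put forward for APAF1 and HIF1A. This list is not complete, and it names no protein for CDKN1B or VEGFA. RBFOX2 is a splicing regulator and not an hnRNP of this kind. CLIP finds contacts anywhere along a transcript, introns included, and does not measure translation.

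The level of a transcript in a library is given as cluster reads per 1000000 listed reads (RPM): peaks less than 30 nt apart were joined, each joined cluster was counted by its highest read number, and the sum in the gene was divided by the sum over the library's list and scaled to 1000000. It is a share of the listed reads, so it can change when other transcripts change. The lists that entered the tests held between 18690 and 523402 peaks, with the lists of hnRNPI and RBFOX2 without crosslinking among the shortest. Sequencing depth is not given, so a transcript with no listed peak is described as listed at 0 and no detection limit is stated. Replicate 1 of hnRNPc with PAGE held only 3268 peaks, none in the 8 genes, and was left out of the tests, so that hnRNPc with PAGE entered with 1 library. The labels do not say that replicates were separate cultures, and the p-values therefore measure the spread between these libraries, which may be technical.

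RBFOX2 and hnRNPI were high on different transcripts. RBFOX2 was higher than the mean of the other 3 proteins on MYC, CCND1, CDKN1B and VEGFA and lower on XIAP, FGF2, APAF1 and HIF1A. hnRNPI was higher on FGF2 and APAF1 and lower on MYC, CCND1 and CDKN1B. hnRNPc was higher on MYC, XIAP and CDKN1B, and hnRNPA1 on CDKN1B alone. On MYC and CDKN1B the low hnRNPI levels enter the mean that the others are set against. The mean log2(RPM + 1) on CDKN1B was 3.23 with hnRNPA1, below 3.81 with hnRNPc and 3.64 with RBFOX2. On MYC it was 5.18 with hnRNPc and 5.99 with RBFOX2, beside 3.90 with hnRNPA1 and 0.77 with hnRNPI. Each comparison is a difference of log2(RPM + 1) with its standard error, fitted with limma over 16401 genes and 39 libraries, and called at a Benjamini-Hochberg adjusted p under 0.05.

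For RBFOX2 8 of 8 were called, 4 higher and 4 lower, where 76.8% of all genes were called, 29.8% higher and 46.9% lower. For hnRNPI 5 of 8 were called against 68.5% of all genes, 2 higher (34.4% of all genes) and 3 lower (34.1%). For hnRNPc 3 of 8 were called, all higher, against 51.1% of all genes, 23% of them higher and 28.1% lower. For hnRNPA1 1 of 8 was called against 47.4% of all genes, 30.1% higher and 17.2% lower. Calls were thus common among all genes, and these counts are to be read against those shares. The median difference over the 8 transcripts was -0.21 with RBFOX2 and -0.61 with hnRNPI, beside -0.51 and 0.03 over all genes. It was 0.46 with hnRNPc and 0.35 with hnRNPA1, beside -0.07 and 0.31. The 4 comparisons share libraries, so a high level with 1 protein lowers the difference of each of the other 3.

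**Figure D1:**
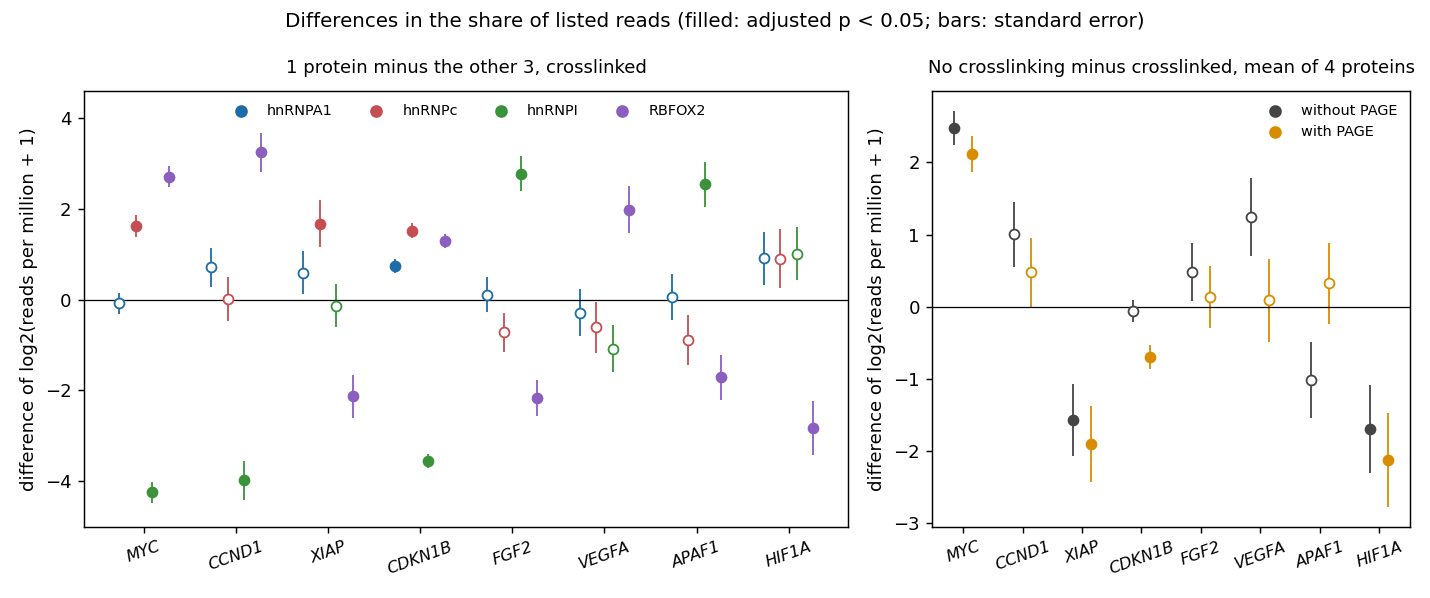
Differences of log2(RPM + 1) for the 8 transcripts, with standard errors as bars and filled points at an adjusted p under 0.05 (limma). Left, each protein minus the mean of the other 3 in crosslinked libraries, with hnRNPI between -4.25 on MYC and 2.78 on FGF2; right, no crosslinking minus crosslinked, with MYC at 2.48 without PAGE and 2.11 with PAGE.

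Libraries without crosslinking share the estimate of the spread in this fit, and the shorter of them vary most. When the fit used only the 23 crosslinked libraries, a choice made after the data had been seen, the differences were the same but 5, 7, 7 and 8 transcripts were called for hnRNPA1, hnRNPc, hnRNPI and RBFOX2, where 74.6%, 75.9%, 85.1% and 87.3% of all genes were called. The further calls included HIF1A, higher for hnRNPA1 (0.91), hnRNPc (0.90) and hnRNPI (1.01), and VEGFA, lower for the same 3 proteins (-0.29, -0.61 and -1.08).

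Among the transcripts of the cell cycle, MYC encodes a transcription factor that drives growth. Over the 6 crosslinked RBFOX2 libraries its lowest, median and highest levels were 44.1, 67.5 and 79.2 RPM. In the 5 hnRNPc libraries the levels were 35.0 with PAGE, 37.6 and 32.0 without it and 33.5 and 38.5 with RecJ. In hnRNPA1 libraries they were 9.78, 14.0 and 20.2, and in hnRNPI libraries 0, 0.767 and 2.81, with a peak in 3 of 6. No neighbouring pair in this order overlapped, and the mean for RBFOX2 was 1.82 times that for hnRNPc. The test gave 2.71 ± 0.22 (SE) for RBFOX2 (limma, adjusted p = 2.75e-10), 1.62 ± 0.25 for hnRNPc (adjusted p = 1.07e-05) and -4.25 ± 0.22 for hnRNPI (adjusted p = 2.66e-13). The low hnRNPI level enters the mean that hnRNPc and RBFOX2 are set against here. The hnRNPc call on MYC was lost when all 40 libraries entered (0.76, adjusted p = 0.165) and when peaks were counted in place of reads (0.82, adjusted p = 0.0743).

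CCND1 encodes cyclin D1, which opens the G1 phase. Its lowest, median and highest RBFOX2 levels were 129, 140 and 187, whereas those with hnRNPA1 were 31.0, 40.8 and 45.3. The hnRNPc levels were 33.6 with PAGE, 26.2 and 23.0 without it and 26.1 and 22.6 with RecJ, overlapping those of hnRNPA1. With hnRNPI they were 0, 3.04 and 7.92. RBFOX2 stood apart from every other library (3.24 ± 0.43, limma, adjusted p = 5.43e-07) and hnRNPI lay below every other library (-3.98 ± 0.43, adjusted p = 3.45e-08).

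CDKN1B encodes p27, an inhibitor of cyclin-dependent kinases that opposes cyclin D1 in the same phase. Its hnRNPc levels were 9.86 with PAGE, 18.4 and 15.7 without it and 11.8 and 14.6 with RecJ. The RBFOX2 levels were 6.79, 12.3 and 15.5 at the lowest, median and highest, and those of hnRNPA1 were 6.77, 8.48 and 9.62; neighbours in this order overlapped. No peak was listed in any of the 6 crosslinked or 4 non-crosslinked hnRNPI libraries. hnRNPc was higher by 1.52 ± 0.16 (limma, adjusted p = 8.98e-08) and RBFOX2 by 1.30 ± 0.15 (adjusted p = 6.1e-08). The hnRNPA1 call (0.74 ± 0.15, adjusted p = 0.000301) was lost with a pseudocount of 10 (0.10, adjusted p = 0.207) and when each library was centred on the median gene (0.46, adjusted p = 0.118). With every hnRNPI library at 0 the fitted hnRNPI value of -3.56 depends on the pseudocount and gives no fold, and it enters the mean that the other proteins are set against.

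**Figure D2:**
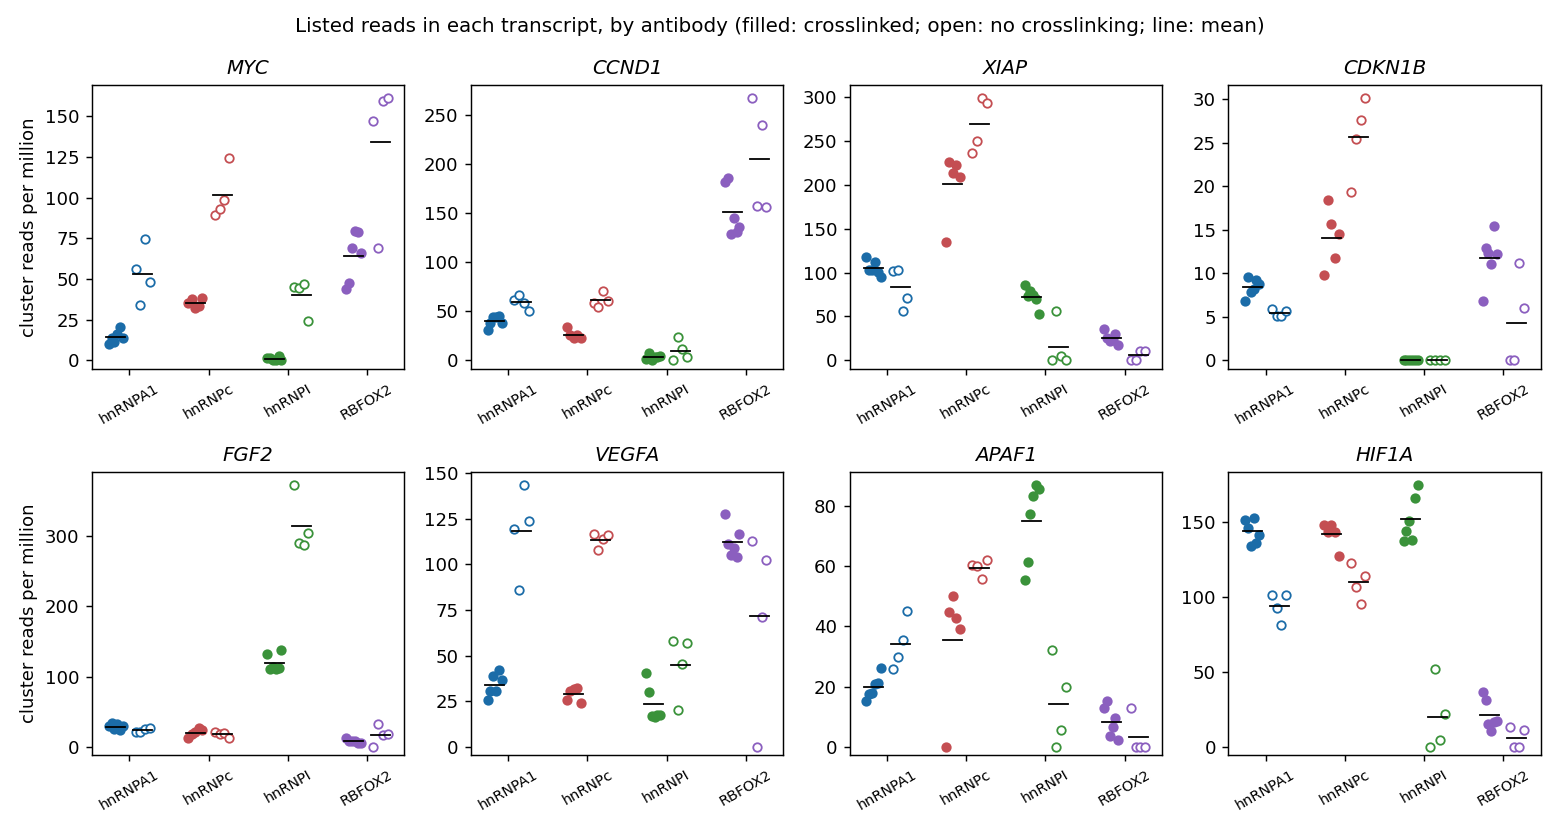
Level in RPM of each transcript, 1 point per library, by antibody, on linear axes that differ between panels; filled points are crosslinked 50000-cell libraries at low RNase, open points are libraries without crosslinking, and lines are means. FGF2 stands out with hnRNPI (110 to 138 crosslinked, 288 to 373 without), CCND1 with RBFOX2 (129 to 187 crosslinked, 156 to 268 without), and CDKN1B has no listed hnRNPI peak.

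Of the growth factor transcripts, FGF2 encodes basic fibroblast growth factor. Its hnRNPI levels were 110, 113 and 138 at the lowest, median and highest of 6 libraries. They were 24.9, 29.4 and 33.6 with hnRNPA1 and 6.0, 8.35 and 12.9 with RBFOX2. The hnRNPc levels were 12.6 with PAGE, 18.6 and 20.9 without it and 26.5 and 24.7 with RecJ. All hnRNPI libraries lay above all others, with a mean 4.1 times that of hnRNPA1, and the lower neighbours in the order overlapped. hnRNPI was higher by 2.78 ± 0.39 (limma, adjusted p = 1.57e-06) and RBFOX2 lower by 2.17 (log2 difference -2.17 ± 0.39, adjusted p = 3.15e-05).

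VEGFA encodes the vascular endothelial growth factor A, which drives vessel growth. RBFOX2 levels on VEGFA were 104, 110 and 127, and the mean was 3.28 times that of hnRNPA1, whose levels were 25.9, 33.6 and 42.0. The hnRNPc levels were 26.0 with PAGE, 30.8 and 31.8 without it and 32.3 and 23.9 with RecJ. hnRNPI levels were 16.7, 17.6 and 40.7. Among crosslinked libraries RBFOX2 was above every library of the other proteins (1.98 ± 0.52, limma, adjusted p = 0.00158), while those 3 proteins overlapped each other. Without crosslinking VEGFA was at 86.0 to 144 RPM with hnRNPA1 and 108 to 117 with hnRNPc. It was then at 20.1 to 57.8 with hnRNPI and 0 to 113 with RBFOX2.

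XIAP and APAF1 act on opposite sides of apoptosis: XIAP blocks caspases, and APAF1 forms the apoptosome that activates them. XIAP was highest with hnRNPc, at 134 with PAGE, 226 and 214 without it and 222 and 209 with RecJ. It was 95.4, 103 and 118 at the lowest, median and highest with hnRNPA1. With hnRNPI it was 53.3, 73.8 and 86.0, and with RBFOX2 17, 24.4 and 35.3. No neighbouring pair overlapped. hnRNPc was higher by 1.67 ± 0.52 (limma, adjusted p = 0.0108) and RBFOX2 lower (-2.13 ± 0.47, adjusted p = 0.000365). The hnRNPc call on XIAP was lost with all 40 libraries (0.49, adjusted p = 0.575) and when peaks were counted (1.11, adjusted p = 0.181).

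APAF1 was highest with hnRNPI, at 55.5, 80.3 and 87.0. Its hnRNPc levels were 0 with PAGE, 44.7 and 50.0 without it and 43.0 and 39.2 with RecJ, so that 1 library listed no peak while 4 lay close together. hnRNPA1 levels were 15.3, 19.4 and 26.1, and RBFOX2 levels 2.50, 8.16 and 15.2. All hnRNPI libraries lay above all others (2.54 ± 0.50, limma, adjusted p = 0.000122), and RBFOX2 was lower (-1.71 ± 0.50, adjusted p = 0.00398).

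HIF1A encodes the oxygen-regulated subunit of the hypoxia-inducible factor, whose targets include VEGFA. Its levels were 137, 148 and 175 with hnRNPI and 134, 144 and 153 with hnRNPA1. The hnRNPc levels were 148 with PAGE, 144 and 148 without it and 143 and 127 with RecJ. These 3 proteins overlapped. RBFOX2 levels were 10.8, 17.2 and 36.8, below every library of the other 3 (-2.83 ± 0.59, limma, adjusted p = 0.000175). The 4 lower RBFOX2 calls, on XIAP, FGF2, APAF1 and HIF1A, were not made when peaks were counted in place of reads, with differences of -0.73, -1.12, -0.67 and -1.26 (adjusted p = 0.272, 0.0594, 0.347 and 0.158).

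Peaks were next placed along each transcript. All 8 genes lie on the forward strand of hg19, the build named in the submitters' processing notes. Their peaks in the 50000-cell low-RNase libraries and those without crosslinking ran over chr8:128748350-128753591 for MYC, chr11:69455918-69469133 for CCND1, chr12:12870323-12875212 for CDKN1B and chr4:123747879-123819166 for FGF2. They ran over chr6:43737951-43754144 for VEGFA, chrX:122993683-123047315 for XIAP, chr12:99039028-99129117 for APAF1 and chr14:62162241-62214923 for HIF1A. Distances below are counted from the first of these peaks. Whether a peak lies in an exon, an intron or an untranslated region was not analysed here, because no annotation of that build was at hand, so no peak could be placed inside or outside a reported entry site.

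A site is a joined cluster listed in at least 3 crosslinked libraries of 1 protein. hnRNPA1 had 182 such sites in the 8 transcripts, hnRNPc 126, hnRNPI 92 and RBFOX2 68. The lists behind them held 450313 to 523402 peaks for hnRNPA1, 214849 to 487908 for hnRNPc, 294597 to 353415 for hnRNPI and 157375 to 260610 for RBFOX2. A site needed 3 of 5 libraries with hnRNPc and 3 of 6 with the others. The part of list length in these counts was not tested, and sites were not counted over all genes. Of the hnRNPA1 sites 126 overlapped no site of another protein, as did 86 of hnRNPc, 64 of hnRNPI and 37 of RBFOX2. Peaks of another protein that formed no site in at least 3 libraries were not counted, so such a site can still hold peaks of other proteins. The share of such sites over all genes was not computed, so these counts do not show that the sites are particular to 1 protein. The pair that overlapped most was hnRNPA1 and hnRNPc by number, with 28 hnRNPA1 sites (15.4% of them) and 29 hnRNPc sites (23.0%). RBFOX2 sites overlapped an hnRNPA1 site in 27.9% of cases and an hnRNPc site in 11.8%. The sites were not evenly spread over the genes, with 63 of the hnRNPA1 sites in HIF1A, 52 of the hnRNPc sites in XIAP, 30 of the hnRNPI sites in APAF1 and 19 of the RBFOX2 sites in CCND1. hnRNPI had no site in MYC or CDKN1B.

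**Figure D3:**
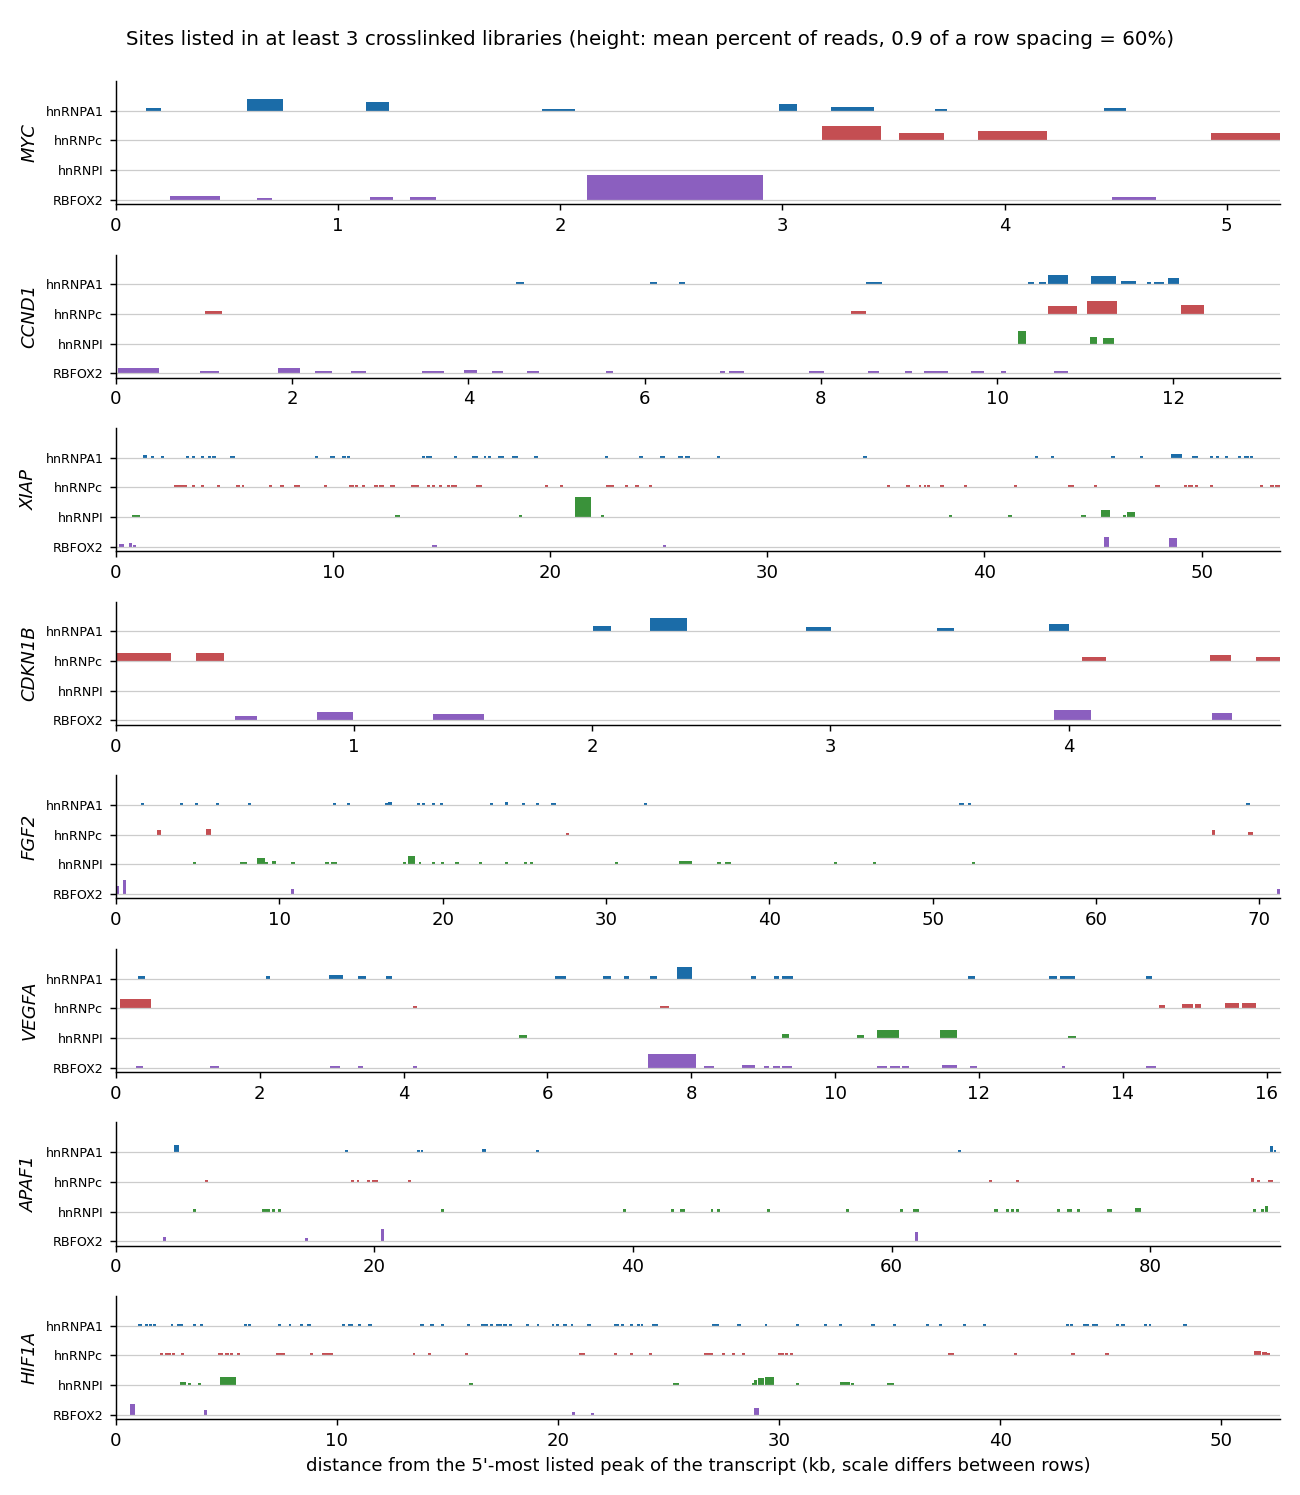
Sites of the 4 proteins along each transcript, drawn at their distance in kb from the first listed peak; the height of a block is its mean percent of the protein's reads in that transcript, and each gene has its own distance scale. RBFOX2 sites lie at the left end of CCND1, XIAP, FGF2 and HIF1A, the largest MYC block is the RBFOX2 site with 56.3% of its reads, and MYC and CDKN1B have no hnRNPI site.

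Close to the start of the listed span, every crosslinked RBFOX2 library placed a larger share of its reads than any crosslinked library of the other proteins in 4 transcripts, FGF2, HIF1A, XIAP and CCND1. The share of all genes with such a separation was not computed, so it cannot be called particular to these transcripts. In FGF2 59.6% ± 20.2 (SD, 6 libraries) of RBFOX2 reads fell within the first 1000 nt, against at most 0.403% on average for the other proteins. The corresponding RBFOX2 share was 31.2% ± 13.8 in HIF1A, where the other 3 proteins had 0%. It was 21.9% ± 6.7 in XIAP, where hnRNPI had 3.37% ± 2.53, hnRNPA1 0.21% and hnRNPc 0%, and it was 12.5% ± 4.13 in CCND1 against at most 2.53% ± 3.47, for hnRNPc. In APAF1 the RBFOX2 mean was also the highest, at 14.0% ± 18.6 against 1.96% ± 2.22 for hnRNPA1, but the libraries overlapped, with RBFOX2 between 0% and 46.7%. Without crosslinking the RBFOX2 share was higher in CCND1 (32.6% ± 5.0, 4 libraries) and 66.7% to 100% in the 3 libraries that listed FGF2, and it was 0% in the 2 libraries each that listed XIAP and HIF1A. These are shares of unequal totals: RBFOX2 had the lowest total on FGF2, XIAP and HIF1A, with FGF2 peaks in RBFOX2 libraries numbering 4 to 9.

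The first RBFOX2 site of HIF1A, chr14:62162866-62163109, began 625 nt from the first peak. It was listed in 6 of 6 libraries at 2.75 to 7.67 RPM. It was listed in 0 of 4 RBFOX2 libraries without crosslinking and in no library of the other proteins, crosslinked or not. Of these RBFOX2 lists without crosslinking, replicate 1 with PAGE held no peak under 5 reads, and 5 reads came to 13.1 RPM there. A site at 2.75 to 7.67 RPM could not be listed in it, so the 0 of 4 does not show absence. In FGF2 the sites chr4:123747911-123748021 and chr4:123748343-123748511, at 32 and 464 nt, were listed in 4 and 5 of the 6 RBFOX2 libraries and in 0 of 6 hnRNPI libraries. hnRNPA1, the protein reported for the FGF2 entry site, had a peak at the first of them in 1 of 6 crosslinked libraries, at 0.625 RPM, and in 2 of 4 without crosslinking, at up to 3.01. With RBFOX2 the second of them was listed in 3 of 4 libraries without crosslinking, at up to 16.5 RPM against 3.28 with it. The library at 16.5 RPM held 10 FGF2 reads in 2 clusters, in a list of 303736 cluster reads with no peak under 5 reads. With crosslinking the site had 9 to 13 reads in longer lists, so these RPM values cannot be compared as levels.

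In CCND1 the first RBFOX2 site, chr11:69455940-69456405, began at 22 nt and was listed in all 6 crosslinked libraries at 6.14 to 19.7 RPM. Without crosslinking it was higher, at 26.2 to 73.5 RPM in 4 of 4 RBFOX2 libraries. hnRNPA1 listed no peak there in 6 crosslinked libraries and did in 3 of 4 without crosslinking, and hnRNPc did in 2 of 5 and 2 of 4. hnRNPA1 and hnRNPc reads lay instead at the far end of the gene, with 71.7% ± 13.2 and 70.2% ± 14.8 in the last 20% of the span; RBFOX2 had 8.71% ± 2.51 there. The leading hnRNPA1 site, chr11:69466499-69466719 at 10581 nt, was shared with RBFOX2 and hnRNPc.

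In XIAP the first site of RBFOX2, chrX:122993835-122994051, lay at 152 nt and was listed in 5 of 6 libraries. Neither hnRNPA1 nor hnRNPc listed a peak at it in any of these libraries. hnRNPI reads were concentrated in chrX:123014815-123015556, which held 45.8% of them, at 16.2 to 27.2 RPM. That site was listed in 3 of 5 hnRNPc libraries at up to 2.81, in 2 of 6 RBFOX2 libraries at up to 1.43 and in no hnRNPA1 library. hnRNPc was spread over 52 sites, and its leading one, chrX:123001244-123001434, held only 2.99% of its reads and was listed by no other protein, at 4.0 to 6.4 RPM with crosslinking and 7.47 to 10.2 without. RBFOX2 and hnRNPI met at chrX:123039209-123039423, listed in 6 of 6 libraries of both and in no hnRNPA1 or hnRNPc library. Without crosslinking this site was listed in 0 of 4 libraries of both. With RBFOX2 it had 14 to 33 reads when crosslinked, and the lists without crosslinking were shorter.

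In CDKN1B, VEGFA and MYC the protein with the highest mean share at the start was an hnRNP. In CDKN1B 44.2% ± 13.9 of hnRNPc reads and 36.6% ± 18 of RBFOX2 reads fell in the first 1000 nt, against 0% for hnRNPA1. The hnRNPc sites were chr12:12870323-12870554, listed in 4 of 5 libraries, and chr12:12870659-12870778, listed in 5 of 5 at 1.55 to 3.14 RPM and at 4.0 to 8.24 in 4 of 4 without crosslinking. The leading hnRNPA1 site, chr12:12872565-12872718, lay at 2242 nt and was listed by no other protein. In VEGFA hnRNPc had 19.9% ± 10.1 of its reads in the first 1000 nt, in the site chr6:43738011-43738445, which hnRNPA1 and RBFOX2 sites overlapped. That site had 2.71 to 7.17 RPM with hnRNPc and at most 1.87 with hnRNPA1, and without crosslinking it was higher with both, at 7.72 to 14.4 and 13.8 to 23.1. The strongest VEGFA site of RBFOX2, chr6:43745355-43746022, held 31.5% of its reads and overlapped the strongest of hnRNPA1, chr6:43745754-43745963, with 25.6%; hnRNPI listed no peak in either. The latter had 7.37 to 10.6 RPM with hnRNPA1 and 12.5 to 32.0 without crosslinking.

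In MYC hnRNPA1, hnRNPc and RBFOX2 had their leading sites in different places, and hnRNPI, which listed MYC peaks in 3 of 6 crosslinked libraries, had no site. hnRNPA1 had 32.2% ± 5.54 of its reads in the first 1000 nt, most of them in chr8:128748939-128749101, at 2.41 to 5.72 RPM in 6 of 6 libraries and in 1 of 4 without crosslinking. An RBFOX2 site overlapped this one, and 3 of 6 crosslinked RBFOX2 libraries listed a peak in it, at up to 4.6 RPM. RBFOX2 had 56.3% in chr8:128750470-128751260, at 2120 nt, with 6.14 to 21.5 RPM; without crosslinking the range was higher, at 23.1 to 35.6. hnRNPc had 71.7% ± 8.38 between 60% and 80% of the span, where chr8:128751527-128751793 was listed in 5 of 5 libraries at 4.8 to 14.8, and in 2 of 4 without crosslinking at up to 11.1. An hnRNPA1 site overlapped it. hnRNPA1 listed a peak there in 3 of 6 crosslinked libraries at up to 2.58, and in 4 of 4 without crosslinking at up to 4.68.

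APAF1 and HIF1A had their hnRNPI reads away from the start. In APAF1 41.5% ± 4.47 of hnRNPI reads lay in the last 20% of the span and 0.43% ± 1.05 in the first 1000 nt. The leading site, chr12:99127952-99128125 at 88924 nt, had 8.24 to 13.2 RPM in 6 of 6 libraries. In HIF1A 55.7% ± 1.42 of hnRNPI reads lay between 40% and 60% of the span, with 18.5% in chr14:62191600-62192026, at 20.3 to 36.5 RPM. hnRNPA1 listed that site in 4 of 6 libraries at up to 1.66. In FGF2 the leading hnRNPI site, chr4:123765753-123766172 at 17874 nt, held 18.3% of its reads and was listed by neither hnRNPA1 nor RBFOX2.

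MYC was higher in the libraries titled as not crosslinked for all 4 antibodies at the same PAGE state. With hnRNPI it was 45.0 and 44.3 RPM with PAGE and 47.2 and 24.0 without, above the crosslinked maximum of 2.81. The hnRNPI values with PAGE rest on only 7 and 11 reads, in short lists of 155606 and 248172 cluster reads. Those without PAGE rest on 49 and 40 reads. The crosslinked hnRNPI libraries that listed MYC held 6 and 5 reads with PAGE and 17 with RecJ, in longer lists. With hnRNPc MYC was 89.1 and 93.0 with PAGE and 98.6 and 125 without. In the fit over the 4 antibodies, MYC was higher by 2.48 ± 0.24 without PAGE (limma, adjusted p = 1.03e-08) and by 2.11 ± 0.25 with PAGE (adjusted p = 2.37e-07); with PAGE the call was lost when peaks with a p-value of 1e-05 or more were left out (0.40, adjusted p = 0.596). The RBFOX2 site of MYC at 2120 nt was listed in all 16 libraries without crosslinking. CCND1 without PAGE was also higher without crosslinking for all 4 antibodies. The differences were 0.31 with hnRNPA1, 1.38 with hnRNPc, 0.5 with RBFOX2 and 1.83 with hnRNPI, the last on 12 and 5 reads. With PAGE the hnRNPI and RBFOX2 libraries overlapped their crosslinked ones on CCND1. In the fit over the 4 antibodies CCND1 was not called (1.01 without PAGE and 0.48 with it).

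XIAP and HIF1A were lower without crosslinking in the mean over the 4 antibodies. Without PAGE XIAP fell by 1.57 ± 0.50 (limma, adjusted p = 0.0109) and HIF1A by 1.69 ± 0.62 (adjusted p = 0.0245), and with PAGE they fell by 1.91 ± 0.53 (adjusted p = 0.00389) and 2.12 ± 0.65 (adjusted p = 0.00843). XIAP with hnRNPc went the other way, at 299 and 293 RPM without crosslinking and PAGE (a difference of 0.43) and at 236 and 250 with PAGE against 134 in the 1 crosslinked library (0.85). With hnRNPI the XIAP difference was -5.0 without PAGE and -3.41 with it, and with RBFOX2 it was -0.96 and -4.96. Both RBFOX2 libraries without crosslinking and with PAGE listed XIAP at 0, so -4.96 depends on the pseudocount and gives no fold. The hnRNPI libraries without crosslinking had 4.81 and 0 RPM without PAGE and 0 and 56.4 with it, so those differences depend on it as well. HIF1A fell by less with hnRNPA1 (-0.65 without PAGE, -0.61 with it) and hnRNPc (-0.48, -0.36) than with hnRNPI (-3.65, -4.28) and RBFOX2 (-1.99, -3.22). With PAGE both of the latter, and without PAGE RBFOX2, had a HIF1A library at 0, so these differences depend on the pseudocount too. For CDKN1B with PAGE the difference was -0.48 with hnRNPA1, 1.1 with hnRNPc and -3.38 with RBFOX2, whose libraries without crosslinking were both at 0. CDKN1B with PAGE was lower on the scale of listed reads (-0.69, adjusted p = 0.00121) but higher after centring on the median gene (1.16). In all, 3 of 8 transcripts were called without PAGE, 1 higher (11% of all genes) and 2 lower (42.2%), and 4 with PAGE, 1 higher (8.66%) and 3 lower (48.8%); 53.2% and 57.5% of all genes were called. The median difference over all genes was -0.52 without PAGE and -0.75 with it. Without crosslinking and with PAGE, the hnRNPI and RBFOX2 lists held only 5243 to 7534 genes, where 16401 genes were tested. Most tested genes had no peak there, so the median gene was at 0 and centring took nothing off these libraries. The same held for replicate 1 of hnRNPI without PAGE (7297 genes). Centring therefore raised the differences without crosslinking, and the centred values cannot decide their direction. After each library was centred on its median gene, 5 transcripts were called without PAGE and 6 with it, all of them higher, where 46.8% and 61.9% of all genes were called in either direction; the XIAP values were then -0.63 and -0.06 and the HIF1A values -0.76 and -0.27, none of them called. The HIF1A call without PAGE was lost without replicate 1 of hnRNPI (-1.45, adjusted p = 0.0699) or of RBFOX2 (-1.24, adjusted p = 0.0903) of the groups without crosslinking and PAGE. Whether these libraries were prepared in the same batch as the crosslinked ones is not given in the sources used here.

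FGF2 with hnRNPI was also higher without crosslinking, at 373 and 290 with PAGE and 288 and 304 without, above the crosslinked maximum of 138. The reads lay in a narrower stretch: the part between 20% and 40% of the span held 90.7% ± 5.73 of the reads (4 libraries) against 33.7% ± 6.17 with crosslinking. The hnRNPI site of FGF2 at 17874 nt had 76.6 to 276 RPM there, against 8.55 to 28.5 with crosslinking. Other hnRNPI sites behaved differently, and the leading ones of XIAP and HIF1A were listed in 0 of 4 libraries without crosslinking. For RBFOX2 the leading sites of XIAP, APAF1 and HIF1A were listed in 0 of 4, while those of MYC and CCND1 were listed in 4 of 4. In all, 69 of 182 hnRNPA1 sites, 91 of 126 hnRNPc sites, 19 of 92 hnRNPI sites and 22 of 68 RBFOX2 sites were listed in a library of the same antibody without crosslinking. The shorter hnRNPI and RBFOX2 lists move with these shares, and their part was not tested. In the hnRNPI lists without crosslinking a peak of 5 reads came to 32.1 and 20.1 RPM with PAGE and to 4.81 and 3.0 without. In the RBFOX2 list of replicate 1 with PAGE it came to 13.1. A site listed in 0 of 4 libraries may therefore lie below what the shortest lists can hold.

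PAGE itself moved no member past the threshold: 0 of 8 were called in limma between crosslinked libraries without and with PAGE, where 4.28% of all genes were called (2.31% higher and 1.97% lower), and APAF1 was the only one with an unadjusted p under 0.05 (1 of 8). In the fit of crosslinked libraries alone, APAF1 was higher without PAGE (1.24, adjusted p = 8.43e-05) and HIF1A lower (-0.34, adjusted p = 0.0021), with 25.7% of all genes called. APAF1 was listed at 0 in the hnRNPc library with PAGE, and the comparison without that library was not run.

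In libraries from smaller inputs XIAP with hnRNPc and VEGFA and CCND1 with RBFOX2 were still listed. XIAP with hnRNPc was 251 and 235 in the 10k libraries and 220 and 183 in the 1k libraries. VEGFA with RBFOX2 was 170 and 193 at 10k and 108 and 114 at 1k, and CCND1 was 137 and 146 at 10k and 77.9 and 104 at 1k. CDKN1B with RBFOX2 was 24.1 and 9.99 at 10k and was listed at 0 in both 1k libraries. The 10k and 1k libraries also used less RNase, 0.001 and 0.0001 U, so cell number and RNase amount cannot be told apart in them.

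Fewer of the sites were overlapped at 1k than at 10k. The 10k libraries overlapped 51.6% and 53.2% of the hnRNPc sites, and the 1k libraries 31.7% and 38.9%. For RBFOX2 the 10k libraries overlapped 60.3% and 69.1% and both 1k libraries 17.6%. Libraries titled 5k and 500, for which the labels nevertheless give 50000 cells, overlapped 72.2% to 75.4% and 56.3% to 57.9% of the hnRNPc sites without RecJ. At medium RNase the share was 48.9% and 56.0% for hnRNPA1 and 52.4% and 57.1% for hnRNPc. List length moves with these shares, since the 1k RBFOX2 lists held 49247 and 72602 peaks and the 10k lists 140539 and 167449. Of the 8 libraries from other gel regions, 6 listed no member peak, and in the 75-100 kDa region 1 library listed XIAP and the other HIF1A.

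**Figure D4:**
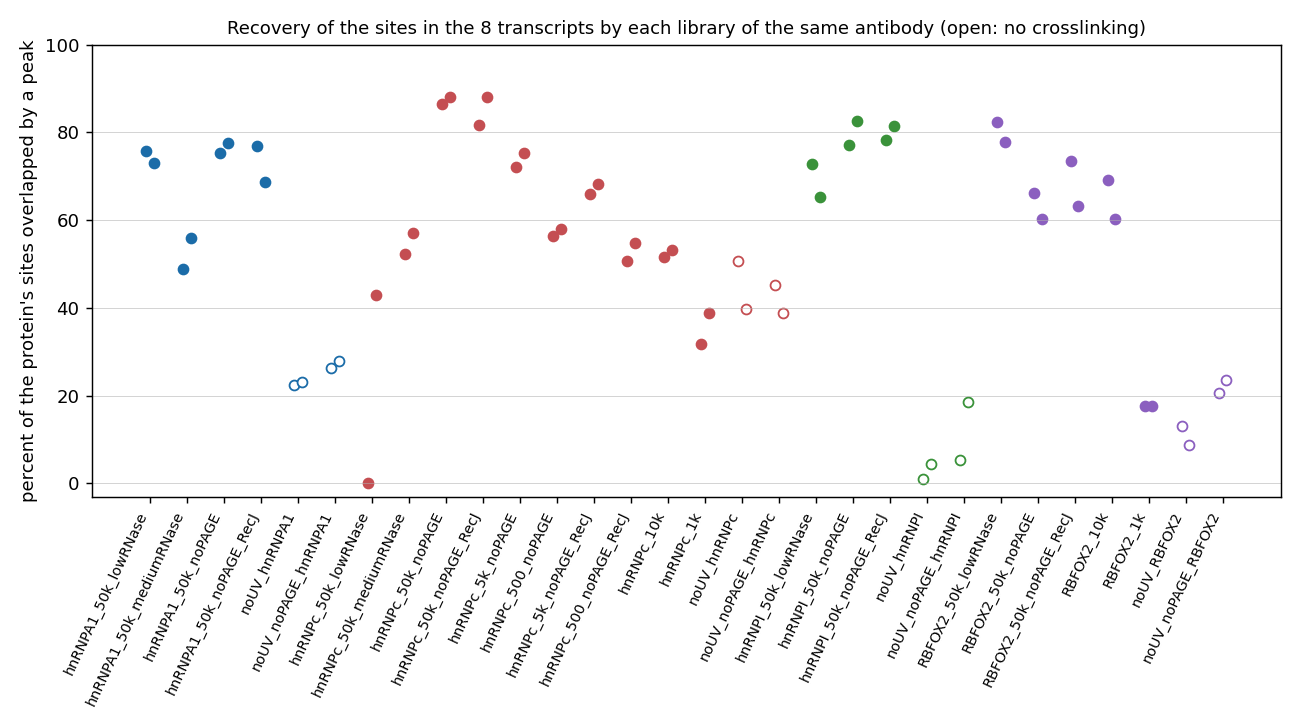
Percent of each protein's sites in the 8 transcripts that a peak of a library of the same antibody overlapped, 1 point per library; open points are libraries without crosslinking. The libraries that defined the sites lie between 60.3% and 88.1%, which their use in the definition raises, except hnRNPc with PAGE at 42.9%; the hnRNPc library left out of the tests is at 0%; the 1k RBFOX2 libraries sit at 17.6% and the hnRNPI libraries without crosslinking between 1.09% and 18.5%.

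As a description over the 39 libraries, the log2 levels of MYC and CCND1 had a Pearson correlation of 0.743 and those of XIAP and HIF1A of 0.827, while CCND1 and FGF2 had -0.824; the libraries share antibodies, so the points are not independent. The genes most like each member over the same libraries reached a correlation between 0.803 for VEGFA and 0.979 for XIAP, the latter with ENSG00000166532, and for CCND1 0.966 with ENSG00000124193. Of 15 other messenger RNAs with a reported entry site, whose identifiers were paired with symbols by hand and could not be checked against a table, 14 were tested. For RBFOX2 13 were called, 5 higher and 8 lower (76.8% of all genes were called), and for hnRNPI 13, 6 higher and 7 lower (68.5%). For hnRNPc 8 were called, 3 higher and 5 lower (51.1%), and for hnRNPA1 9, with 8 higher and 1 lower (47.4%). Without crosslinking 14 were called without PAGE, 8 higher and 6 lower (53.2%), and 13 with PAGE, 7 higher and 6 lower (57.5%). PAGE gave 3 calls, 2 higher and 1 lower (4.28%).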

How the data were processed

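Each of 68 libraries has 1 deposited peak list of 8 columns, made per library. Per the submitters' processing notes, the build was hg19 and bcl2fastq, STAR 2.7.3a and UMI-tools 1.0.1 were used; the peak caller's version is not given in the sources used here. The p-value of each peak is the deposited value of the authors' caller (at most 0.00755). The peak name ends in a number of at least 4, whose meaning is not stated and which was read as the peak's reads.

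Gene symbols come from the definition of the 8 transcripts, matched by Ensembl identifier; of the gene table at hand, 0 identifiers matched, so other genes stay unnamed. Peaks less than 30 nt apart were joined. Log2(RPM + 1) was tested for genes with a peak in at least 6 crosslinked libraries, in 1 limma 3.58.1 fit (R 4.3.3) of 20 groups with 19 residual degrees of freedom, with Benjamini-Hochberg adjustment; the script was tested on simulated data. Libraries with lists under 10000 peaks were left out. Named sites are, per gene and protein, the one listed in the most libraries, and the first site of each gene. Site levels are the highest peak's RPM. Alternatives covered scale, filter, pseudocount, p-value limit, the replicate block and each library left out. The members, lists and tests were chosen with earlier results of these data known. Same-numbered replicates did not deviate together (median correlation 0.00011 over 171 pairs of groups).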

Additional observations from a re-analysis of the deposited data

Results flagged for a closer look

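In 6 cases every library of 1 antibody moved 1 way without crosslinking and every library of another moved the opposite way. Differences are of log2(RPM + 1), with 2 libraries a group, and the difference between antibodies was not tested in any of them. Such cases were sought only among the transcripts examined here. The share of all genes with such a case was not computed, so the count cannot be called high or particular to these transcripts. Without PAGE, XIAP was higher with hnRNPc (0.43) and lower with the other 3 antibodies, down to -5.0 with hnRNPI, a gap of 5.43. CDKN1B without PAGE was higher with hnRNPc (0.73) and lower with hnRNPA1 (-0.49), a gap of 1.23. FGF2 with PAGE was higher with hnRNPI (1.43) and lower with hnRNPA1 (-0.52), a gap of 1.95. VEGFA without PAGE was higher with hnRNPA1 (1.92), hnRNPc and hnRNPI and lower with RBFOX2 (-0.32), a gap of 2.24. APAF1 was higher with hnRNPA1 and lower with hnRNPI, by a gap of 3.79 without PAGE (1.01 and -2.78) and of 4.09 with PAGE (0.72 and -3.37). The hnRNPI libraries without crosslinking had XIAP at 4.81 and 0 RPM without PAGE and APAF1 at 32.1 and 0 with it. The differences of -5.0 and -3.37, and the gaps of 5.43 and 4.09, therefore depend on the pseudocount and give no fold.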

How the results depend on the processing

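Of 24 called transcript results, 23 kept their direction in every alternative and 11 their call; the cause of the changes below was not tested. Each count of called transcripts is followed by the percent of all genes called. For hnRNPA1 it went from 1 to 2 (58.6%, pseudocount 10), 3 (53.6%, p below 1e-05) and 0 (38.4%, centred on the median gene), and for hnRNPc from 3 to 5 (60.3%, pseudocount 10) and 1 (30.8%, peaks per 100000 peaks). For RBFOX2 it went from 8 to 4 (58.1%, peaks per 100000 peaks). Without crosslinking and PAGE it went from 3 to 1 with all 40 libraries (39.9%) or by peaks (44.1%), and to 5 with pseudocount 10 (57.2%) or centring (46.8%). With PAGE it went from 4 to 1 (35.3%, all 40 libraries) and 2 (59.9%, p below 1e-05), and between PAGE states from 0 to 2 (10.3%, p below 1e-05). With crosslinked libraries only, added after the data were seen, the counts were 5 for hnRNPA1 (74.6%), 7 for hnRNPc (75.9%) and 2 for PAGE (25.7%). With 1 library left out, counts ranged from 1 to 3 for hnRNPA1, 3 to 5 for hnRNPc, 5 to 6 for hnRNPI, 8 to 8 for RBFOX2, 2 to 6 and 4 to 6 without crosslinking (without and with PAGE) and 0 to 0 for PAGE; the highest counts for hnRNPA1 and for no crosslinking without PAGE came without either hnRNPI replicate, and that for hnRNPc without either RBFOX2 replicate, not crosslinked and with PAGE. At p below 1e-05 there were 86 hnRNPA1 sites (16 shared), 72 hnRNPc (10), 53 hnRNPI (7) and 39 RBFOX2 (11).

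Signs that turned, all but CDKN1B without crosslinking and with PAGE on differences not called: for hnRNPA1, MYC 0.20 (all 40 libraries) and 0.14 (peaks), CCND1 -0.076 (peaks), FGF2 -0.063, -0.16 and -0.17 and APAF1 -0.27, -0.14 and -0.22 (pseudocount 10, p below 1e-05, centred). For hnRNPc, CCND1 -0.84 (all 40), -0.34 (pseudocount 10) and -0.065 (peaks), and HIF1A -0.30 (all 40). For hnRNPI, XIAP 0.26 (all 40), 0.36 (summed peaks), 0.17 (p below 1e-05) and 0.082 (centred), and HIF1A -0.15 (peaks). Without crosslinking and PAGE, CDKN1B 0.015 (pseudocount 10), 0.18 (peaks) and 0.88 (centred). Without crosslinking and with PAGE, CDKN1B 0.23 (p below 1e-05) and 1.16 (centred), and APAF1 -0.36 (p below 1e-05). Centring took nothing off the lists without crosslinking whose median gene was at 0. The centred counts and signs without crosslinking therefore cannot decide a direction. With 1 library left out, the values ran from -0.19 to 0.023 for MYC and from -0.033 to 0.15 for APAF1 (hnRNPA1), from -0.096 to 0.12 for CCND1 (hnRNPc) and up to 0.042 for CDKN1B without crosslinking and PAGE. With PAGE they ran from -0.77 to 0.94 for VEGFA, -0.31 to 0.95 for APAF1, -0.10 to 1.06 for CCND1 and -0.50 to 0.77 for FGF2; of these VEGFA (without RBFOX2 replicate 1) and FGF2 (without RBFOX2 replicate 2) were then called.

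The replicate numbers did not pair the libraries (1 of 171 pairs of groups correlated above 0.1). With the replicate block the counts of called transcripts were 1, 3, 5 and 8 for the 4 proteins, 3, 4 and 0 for the others, and only CCND1 for hnRNPc turned sign (-0.035). Depth is not given, so short lists limit what can be seen at a site.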
